A study of Schizosaccharomyces pombe with 6 samples.

Results

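The Lsm proteins are small RNA-binding proteins of the Sm fold that assemble into closed rings of 7 subunits. Subunits Lsm2 to Lsm7 are shared by 2 rings. Together with Lsm1 they form a cytoplasmic ring that binds the 3′ end of deadenylated mRNA and promotes decapping, and together with Lsm8 they form a nuclear ring that binds the 3′ end of U6 snRNA, a core RNA of the spliceosome. In *Schizosaccharomyces pombe* the nuclear ring also binds the mature telomerase RNA. All 8 genes, *lsm1* to *lsm8*, were chosen by their symbols in the array's annotation, and 8 of 8 were measured, each by 1 probe set, among 2919 named *S. pombe* features (2899 of them single genes).

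Signals came from *rae1-167* cells of the 972 strain background grown in YE4S, a rich yeast extract medium, and harvested after 1 h at 36°C (3 arrays) or at 25°C (3 arrays). Every sample carried *rae1-167*, a temperature-sensitive allele of the essential mRNA export factor gene *rae1*, and the question asked of the arrays was whether few or many mRNAs accumulate at the restrictive temperature. No wild type array was analysed here, so an effect of the temperature itself and an effect of the mutation cannot be told apart. The arrays (GeneChip Yeast Genome 2.0) were hybridised with total RNA labelled as biotinylated cRNA. The signal of each probe set is a linear intensity derived and globally scaled by the authors, and signals of different genes cannot be set against each other because their probes differ. In such bulk samples, less of an mRNA in each cell and fewer cells that carry it cannot be told apart.

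Across all features, the median log2 fold change (36°C over 25°C) was -0.66, and 1514 features were lower and 354 higher by limma, a linear model test fitted across all features, with a Benjamini-Hochberg adjusted p under 0.05. With the median of every array set equal (centring), 1007 were lower and 1154 higher, and after quantile normalization, 990 and 883. Centring moved the median of all features by 0.76 and quantile normalization by 0.64 on the log2 scale. The array also carries *S. cerevisiae* probe sets, and their 90th percentile on each array, taken as background, was 14.0 to 16.7 at 36°C and 15.8 to 21.3 at 25°C. Of 7 *S. pombe* control genes with separate 5′ and 3′ probe sets, 3 had a lower 5′ to 3′ ratio on every 36°C array than on any 25°C array, and the part of this sign of RNA quality in the results was not tested. The signal of *rae1* itself was 1634, 1497 and 1530.3 at 36°C against 4298.5, 4477 and 4717 at 25°C.

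Of the 8 Lsm genes, 6 were lower at 36°C (*lsm1*, *lsm3*, *lsm4*, *lsm5*, *lsm6* and *lsm7*), 1 was higher (*lsm2*) and 1 did not pass the test (*lsm8*). Lower calls made up 51.9% of all features and higher calls 12.1%. Their median log2 fold change was -0.87, beside -0.66 for all features. The range was wide, with a 12.4-fold decrease of *lsm1* at one end and a 1.27-fold increase of *lsm2* at the other, so that the changes of these genes, whose products sit in the same cytoplasmic ring, differed 15.7-fold. For the 6 lower genes every 36°C array lay below every 25°C array, as for 56.4% of all features, and for *lsm2* every 36°C array lay above, as for 15.0% of all features.

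**Figure D1:**
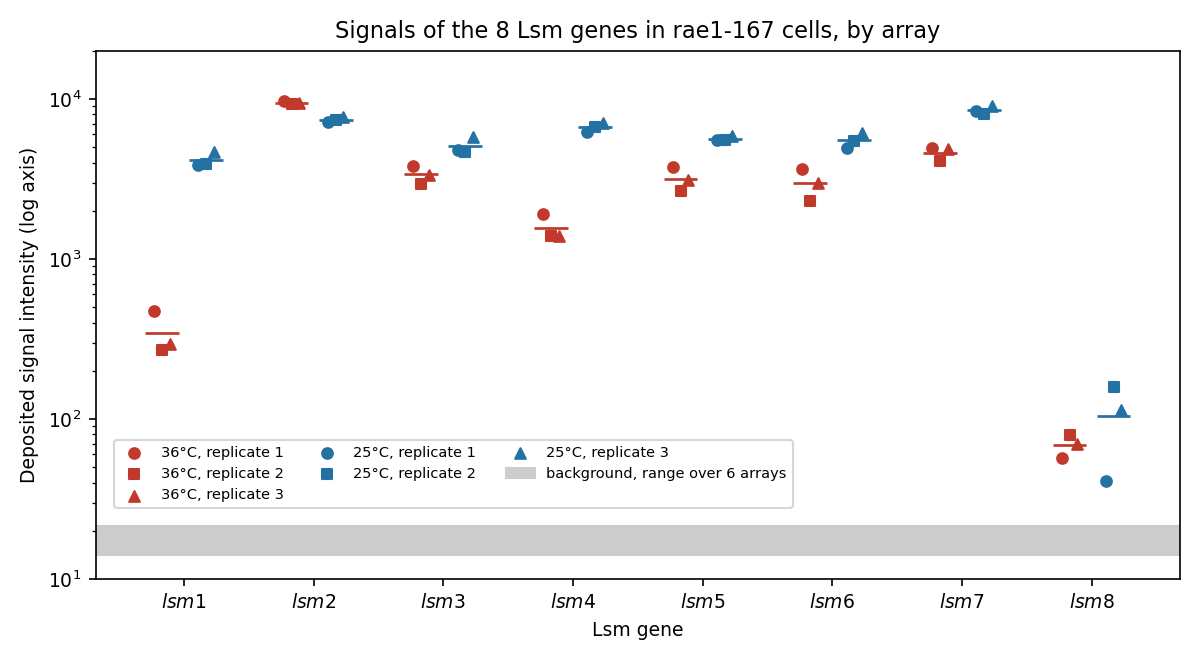
Deposited signal (log axis) of each Lsm gene on the 3 arrays at 36°C (red, left) and the 3 arrays at 25°C (blue, right), with bars at the means and the background range in grey. The 36°C points of *lsm1* lie between 270.2 and 469.8, all below its 25°C points, those of *lsm2* lie above its 25°C points, and those of *lsm8* overlap.

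*lsm1* (SPBC3D6.08c) encodes the subunit particular to the cytoplasmic ring. Its signal was 469.8, 270.2 and 295.5 at 36°C (replicates 1, 2 and 3), against 3886, 3903 and 4679 at 25°C. All 3 arrays at 36°C were far below the 25°C arrays and well above background. The mean signal was 345 ± 109 at 36°C and 4156 ± 453 at 25°C (SD, n = 3 each), which amounted to -3.63 on the log2 scale (SE 0.23, limma adjusted p = 4.6e-05). Ordered by size of decrease, *lsm1* ranked 53 among the 2919 features, below the 5th percentile of all changes (-3.11).

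*lsm8* (SPCC1840.10) encodes the subunit particular to the nuclear ring, the counterpart of Lsm1. Its probe set was dim but above background on all 6 arrays, with 56.9, 79.8 and 70.0 at 36°C against 40.7, 159.1 and 113.7 at 25°C. The groups overlapped, because replicate 1 at 25°C was the lowest of the 6 arrays and the other two at 25°C were the highest. The mean was 68.9 ± 11.5 at 36°C and 104.5 ± 59.7 at 25°C (SD, n = 3 each). The log2 fold change of -0.40 had a 95% confidence interval of -1.62 to 0.82 and did not pass limma's test (adjusted p = 0.52). Without replicate 1 at 25°C it was -0.98 (adjusted p = 0.013 from limma), and without replicate 2 at 25°C it was 0.0046 (adjusted p = 0.99), so a single array decides this value.

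The ring-specific subunits could also be compared within each array, which does not depend on a factor that multiplies all signals of an array. The log2 difference of *lsm8* minus *lsm1* was 3.22 higher at 36°C than at 25°C, and the 3 values at 36°C all lay above the 3 at 25°C. A two-sided exact permutation test over the arrays gave p = 0.1, the smallest that 3 arrays against 3 allow. Leaving out 1 array at a time gave changes of 2.70 to 3.68, and quantile normalization, which is no such factor, gave 2.73. The log2 fold changes of *lsm1* and *lsm8* were -3.63 and -0.40, and the median of all features was -0.66. The rise of 3.22 therefore mostly restates the decrease of *lsm1*. A feature with the median change would also have risen against *lsm1*. Whether the rise is particular to *lsm8*, whose own change did not pass limma's test, was not tested.

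Among the shared subunits, *lsm4* (SPBC30D10.06) fell furthest. In budding yeast Lsm4 has a C-terminal tail that helps decay factors gather in P bodies. Its signal was 1898, 1393 and 1399 at 36°C, against 6250.5, 6712 and 7119.6 at 25°C. The groups were far apart, with means of 1563 ± 289.6 at 36°C and 6694 ± 435 at 25°C (SD, n = 3 each), a 4.32-fold decrease (log2 fold change -2.11, SE 0.16, adjusted p = 8.1e-05 from limma). Ordered by size of decrease, *lsm4* ranked 464.

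*lsm2* (SPCC1620.01c), another subunit of both rings, was the one member to rise. It had a signal of 9671, 9237 and 9394 at 36°C, against 7149.6, 7398 and 7697 at 25°C. The groups did not overlap, but the difference was small next to those of *lsm1* and *lsm4*, with means of 9434 ± 219.7 at 36°C and 7415 ± 274 at 25°C (SD, n = 3 each). The log2 fold change was 0.35 (SE 0.10, adjusted p = 0.021 from limma). The call was lost without replicate 3 at 36°C (adjusted p = 0.065 from limma), without replicate 1 at 25°C (adjusted p = 0.057) and without replicate 2 at 25°C (adjusted p = 0.090), while the log2 fold change stayed between 0.32 and 0.38 when any 1 array was left out.

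The remaining shared subunits, *lsm3*, *lsm5*, *lsm6* and *lsm7*, changed by similar amounts, with log2 fold changes between -0.91 and -0.59 that lie near the median of all features. The signal of *lsm3* (SPBC9B6.05c) was 3819, 2946 and 3368 at 36°C, against 4760.2, 4638 and 5819 at 25°C (log2 fold change -0.59, SE 0.15, adjusted p = 0.015 from limma). The groups did not overlap, with 3819 on the highest 36°C array and 4638 on the lowest 25°C array. The call of *lsm3* was lost without replicate 2 at 36°C (adjusted p = 0.052 from limma) and without replicate 3 at 25°C (adjusted p = 0.051).
*lsm5* (SPBC20F10.09) had 3743, 2652 and 3102 at 36°C, against 5516, 5559 and 5851 at 25°C (log2 fold change -0.85, SE 0.15, adjusted p = 0.0031 from limma). *lsm6* (SPAC2F3.17c) had 3632, 2302 and 2961 at 36°C, against 4925, 5427 and 6152.5 at 25°C (log2 fold change -0.91, SE 0.20, adjusted p = 0.0069 from limma). In both genes the 36°C arrays spread more widely on the log2 scale than the 25°C arrays, with replicate 1 the highest and replicate 2 the lowest. *lsm7* (SPCC285.12) had 4919, 4095 and 4852 at 36°C, against 8450.4, 8053 and 9032 at 25°C (log2 fold change -0.88, SE 0.12, adjusted p = 0.0010 from limma), the narrowest interval among these genes.

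**Figure D2:**
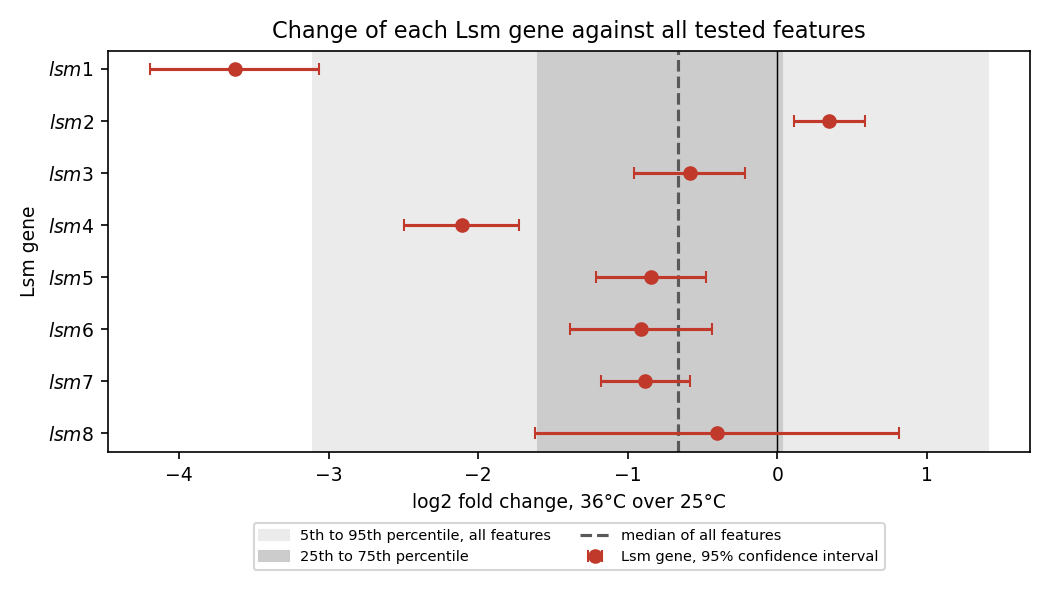
Log2 fold change (36°C over 25°C) of each Lsm gene with its 95% confidence interval, over bands for the percentiles of all 2919 features. *lsm1* lies outside the 5th to 95th percentile band (-3.11 to 1.41), *lsm4* lies below the 25th percentile (-1.60), *lsm2* lies above the 75th (0.03), and the others lie within the inner band.

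To follow the subunits relative to each other, the log2 signal of each gene was taken minus the mean log2 signal of *lsm2* to *lsm7* on the same array, with the 25°C mean of each gene set to 0. By this measure *lsm5*, *lsm6* and *lsm7* moved together, with 36°C means of -0.02, -0.08 and -0.05. Their 36°C values overlapped those at 25°C. *lsm3* lay at 0.23 to 0.26 on the 36°C arrays, against -0.08 to 0.10 on the 25°C arrays. *lsm4* lay at -1.41 to -1.18 at 36°C, against -0.03 to 0.04 at 25°C, and *lsm2* at 1.02 to 1.34, against -0.06 to 0.04. *lsm1*, which is outside the mean, lay at -2.97 to -2.50 at 36°C, against -0.05 to 0.07 at 25°C. The genes *lsm2* to *lsm7* are part of the mean they are set against, which draws their values toward 0. Most genes in this mean fell at 36°C, so a value above 0 need not be a rise in signal. The log2 fold changes of the signals themselves were 0.35 for *lsm2* and -0.59 for *lsm3*. This comparison was chosen after the signals were seen and was not tested. Its values are the same under any scaling that multiplies a whole array by 1 factor.

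**Figure D3:**
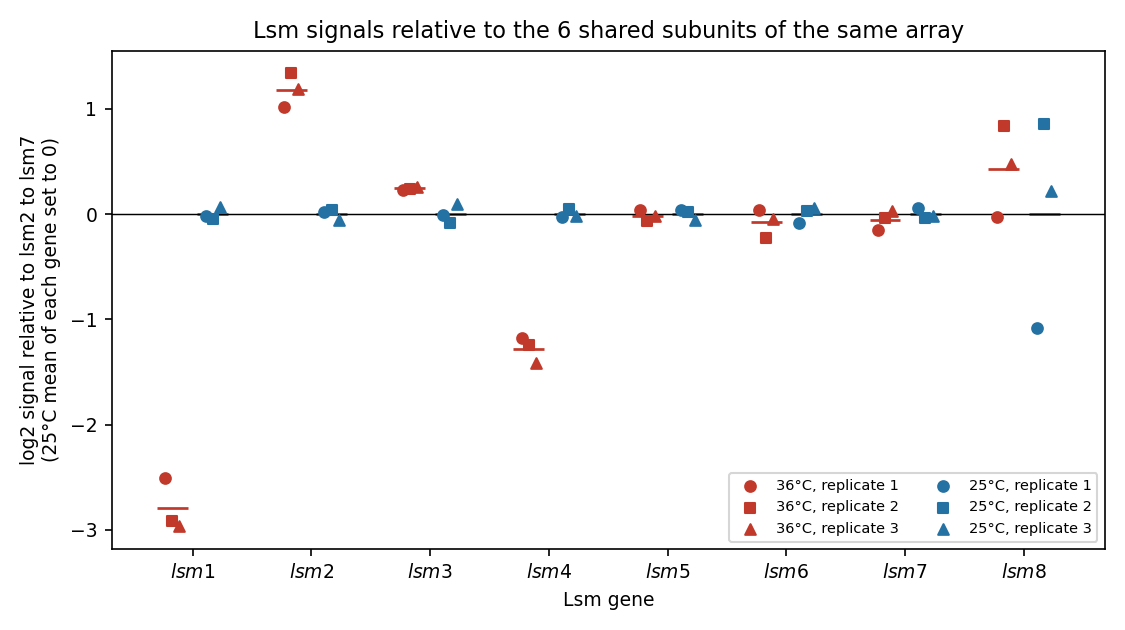
Log2 signal of each Lsm gene minus the mean of *lsm2* to *lsm7* on the same array, with the mean of the 25°C arrays of each gene set to 0, at 36°C (red, left) and 25°C (blue, right). *lsm5*, *lsm6* and *lsm7* stay near 0, and *lsm4* and *lsm1* lie at -1.28 and -2.80. *lsm2* rises by 1.18 against this mean, while its own log2 fold change was 0.35.

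The scaling of the arrays decided the calls of the genes with small changes. With array medians set equal, *lsm1* (-2.87), *lsm4* (-1.35) and *lsm2* (1.11) kept their calls, while *lsm5* (-0.08), *lsm6* (-0.15) and *lsm7* (-0.12) did not pass limma's test and *lsm3* turned to 0.18 (adjusted p = 0.46). After quantile normalization *lsm1* (-2.64), *lsm4* (-1.60), *lsm7* (-0.57) and *lsm2* (0.56) kept their calls, and *lsm3* (-0.19), *lsm5* (-0.45) and *lsm6* (-0.50) did not pass. Lower calls then made up 34.5% of all features after centring and 33.9% after quantile normalization. Scaling to the bacterial and phage hybridization controls, which moved the median of all features by only -0.01, changed no call of an Lsm gene. The mean log2 signal of these controls was already alike on the arrays as deposited (10.60 to 10.77). This scaling could therefore change little, and it does not test the centring or quantile results.

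**Figure D4:**
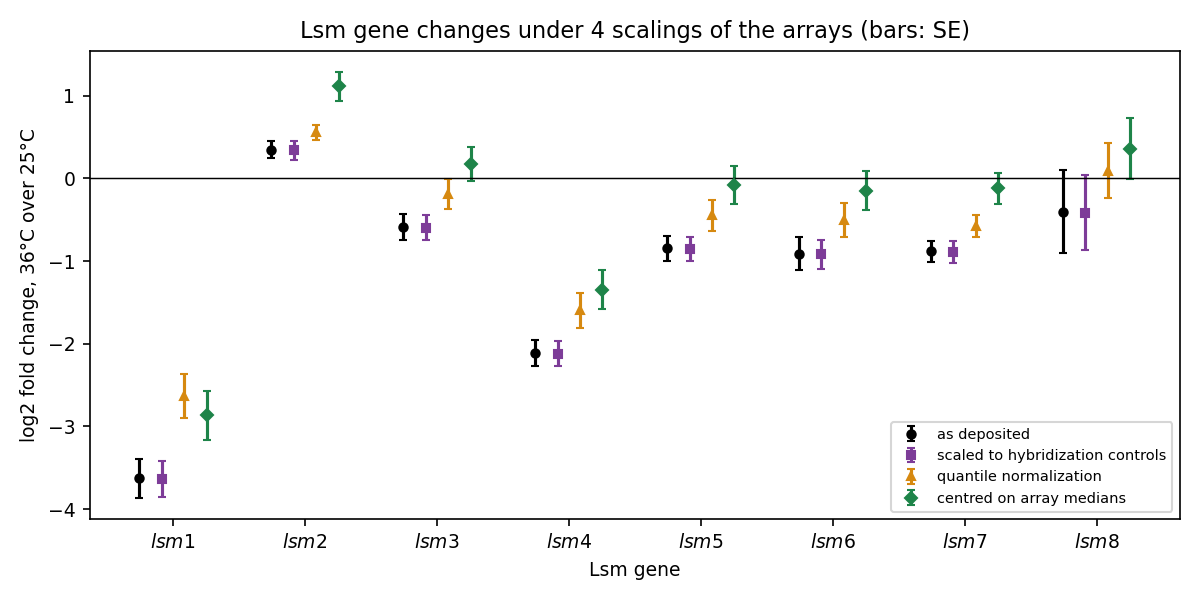
Log2 fold change (36°C over 25°C) of each Lsm gene, with its SE, for signals as deposited, scaled to hybridization controls, quantile normalized and centred on array medians. *lsm1* and *lsm4* stay below 0 and *lsm2* above 0 in all 4, while *lsm3* moves between -0.60 and 0.18 and *lsm8* between -0.41 and 0.36.

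Replicate 1 differed from the others in the Lsm genes. In 7 of the 8 genes it was the highest of the 36°C arrays, and within its replicate number *lsm1* changed by -3.05, against -3.85 and -3.99 in replicates 2 and 3. The change of *lsm4* was -1.72 in replicate 1 and -2.27 and -2.35 in the others, and that of *lsm6* was -0.44 in replicate 1 and -1.24 and -1.05 in the others. *lsm8* changed by 0.48 in replicate 1 but by -0.995 and -0.70 in replicates 2 and 3. The median change of all features was alike in the 3 replicates (-0.67, -0.67 and -0.60). Replicate 1 also stood apart over all features, with the lowest median log2 signal at both temperatures. This median was 10.16 at 36°C, against 10.45 and 10.63 in replicates 2 and 3, and 10.92 at 25°C, against 11.25 and 11.36. The share of all features with replicate 1 highest at 36°C was not counted. Both arrays of replicate 1 bear names of another kind than the other 4 in the labels, whose meaning is not given. Without both, *lsm1* changed by -3.92 and *lsm8* by -0.85 (adjusted p = 9.4e-04 from limma with 2 arrays a group), and 7 of the 8 genes were lower and 1 higher. Calls over all features were also more frequent then, with 60.2% lower and 16.6% higher.

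The array also holds probe sets for the 8 LSM genes of *S. cerevisiae*, a species not used in these cultures. They gave 0.4 to 13.9 at 36°C and 0.4 to 22.0 at 25°C, and belong to the probe sets from which background was taken.

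For each Lsm gene, the other feature with the most similar course over the 6 arrays was found by the root mean square difference of their log2 signals, each taken minus its own mean, among 2840 other features that were above background on every array and carried a single systematic gene ID. *lsm1* was closest to *taf9*, a subunit gene of TFIID and SAGA, at a difference of 0.08, and *taf9* had a log2 fold change of -3.54. *lsm4* was closest to *clr6*, a histone deacetylase gene, at 0.04 (log2 fold change of *clr6* -2.06). *lsm2* was closest to *rpn9*, a proteasome lid gene, at 0.02 (0.34). The closest to *lsm3* was *tim10*, of mitochondrial protein import, at 0.04, and that to *lsm5* was *ptf2* at 0.04. *lsm6* and *lsm7* were closest to the mitochondrial ribosomal protein genes *rsm27* and *mrpl16*, at 0.04 and 0.05. *lsm8*, the dimmest, had no close match, with *spc2* nearest at 0.31. These likenesses are descriptions over 6 arrays that share the same temperature contrast.

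The genes next to the Lsm genes on the chromosome did not all move as they did. Of 16 adjacent protein-coding genes, 10 had a named probe set, and 7 of these were lower, 1 was higher and 2 did not pass limma's test. Among all features, 51.9% were lower and 12.1% higher, and the neighbours were not tested against them. Next to *lsm1* lies *dpb4*, a DNA polymerase epsilon subunit gene, which fell nearly as far (-3.46, adjusted p = 6.5e-05 from limma), while *gpi3* on its other side fell by 1.04. Next to *lsm2*, which rose, *sec65* fell by 0.69, and next to *lsm5*, which fell, *psl1*, a cyclin gene, rose (0.91, adjusted p = 0.0010 from limma). *csl4*, an exosome subunit gene beside *lsm8*, fell by 1.84. The annotated spans of 2 Lsm genes, *lsm4* and *lsm7*, overlap a neighbour, *bpl1* and *dsc5*, and the sources used here do not give the probe positions.

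The genes of the complexes in which the rings act were followed as lists. Among all features, 51.9% were lower and 12.1% higher. With centring these shares were 34.5% and 39.5%, and with quantile normalization 33.9% and 30.3%. The Sm proteins form the related ring on the other spliceosomal snRNAs. Of the 7 Sm ring genes, 7 were measured, 6 were lower, 0 were higher (limma, with 0 also at p under 0.05 before adjustment) and 1 did not pass, with a median log2 fold change of -0.72. *smf1* (-2.11) and *smb1* (-1.66) fell most, and the others lay between -0.94 and -0.20, with *smg1* (-0.20) not passing. After centring, 2 were lower and 1 higher, and after quantile normalization 2 were lower and 0 higher (limma, with 1 higher at p under 0.05 before adjustment). The 2 lower genes were *smf1* and *smb1* in both.

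The cytoplasmic ring acts with the decapping enzyme and the 5′ to 3′ exonuclease. Of 9 listed decapping and decay genes, 7 were measured, 3 were lower, 1 was higher and 3 did not pass, with a median of -0.84, and *pdc2*, whose product bridges the ring to the decapping enzyme, was not analysed here. The catalytic decapping subunit gene *dcp2* had a signal of 112.0, 184.9 and 197.0 at 36°C against 1238, 1824 and 1684 at 25°C, which amounted to -3.29 on the log2 scale (SE 0.27, limma adjusted p = 1.1e-04). Its activator gene *dcp1* moved the other way, with 6241, 6346 and 7338 at 36°C against 2798, 2740.0 and 3248 at 25°C, a rise of 1.18 on the log2 scale (SE 0.13, limma adjusted p = 3.5e-04). *exo2*, the 5′ to 3′ exonuclease gene, fell by 1.80, and *edc3*, an enhancer of decapping with an Lsm domain of its own, fell by 1.77 (-0.26 and not passing after quantile normalization). The helicase gene *ste13* stood at 0.54 (adjusted p = 0.053 from limma), and with the replicate number as a block it was higher (adjusted p = 0.0052) and *sum2*, a gene of the Lsm-domain Scd6 family, was lower (-0.84, adjusted p = 0.038), giving 2 higher and 4 lower genes. With the block, 466 of all features were higher (354 without it) and 1720 lower (1514 without it). After centring 3 were higher (*dcp1*, *ste13* and *nhm1*) and 3 lower. Quantile normalization gave 3 higher calls, for the same genes, and 2 lower ones. Lower calls made up 51.9% of all features, 34.5% after centring and 33.9% after quantile normalization. Higher calls made up 12.1%, 39.5% and 30.3%.

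The nuclear ring belongs to the U6 snRNP, which joins U4 and U5 in the tri-snRNP of the spliceosome. Of 17 listed genes of this particle and of U6 maturation, 11 were measured, 10 were lower, 0 were higher (limma, with 0 also at p under 0.05 before adjustment) and 1 did not pass, and *prp24*, of the U6 snRNP, was not analysed here. Their median was -2.37. *snu66* had 40.8, 53.0 and 46.3 at 36°C against 830.5, 1108 and 1176 at 25°C (log2 fold change -4.47, adjusted p = 1.8e-05 from limma). *prp3*, of the U4/U6 particle, had 53.9, 58.9 and 64.0 at 36°C against 723.7, 837 and 1039 at 25°C (log2 fold change -3.87, adjusted p = 2.0e-05 from limma). In *dcp1*, *dcp2*, *snu66* and *prp3* the groups lay far apart. The 36°C signals of *snu66* and *prp3* were dim, beside a background of 14.0 to 16.7, which limits the sizes of their changes. With 32 added before log2, *snu66* changed by -3.75 and *prp3* by -3.29, and both were still called lower. *sla1*, the gene of the La protein that binds the 3′ end of newly made U6 snRNA, fell by 2.42, and *snu13* (-0.21) did not pass. After centring 10 were still lower, with 1, *snu13*, higher (0.56), and after quantile normalization 9 were lower. Among all features, 51.9% were lower as deposited, 34.5% after centring and 33.9% after quantile normalization. The call of *brr2*, a helicase gene of the U5 particle, was lost without replicate 2 or replicate 3 at 25°C.

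Of 5 listed telomerase genes, 4 were measured and 4 were lower, with a median of -1.25. *pof8*, whose product helps the nuclear ring onto telomerase RNA, fell by 1.77, *est1* fell by 1.39, the reverse transcriptase gene *trt1* fell by 1.10, and *tgs1*, the cap hypermethylase gene, fell by 0.84. After centring 2 of them were lower, and after quantile normalization 0 were (limma, with 0 also at p under 0.05 before adjustment). Lower calls made up 51.9% of all features, 34.5% after centring and 33.9% after quantile normalization, and no list was tested against the others.

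**Figure D5:**
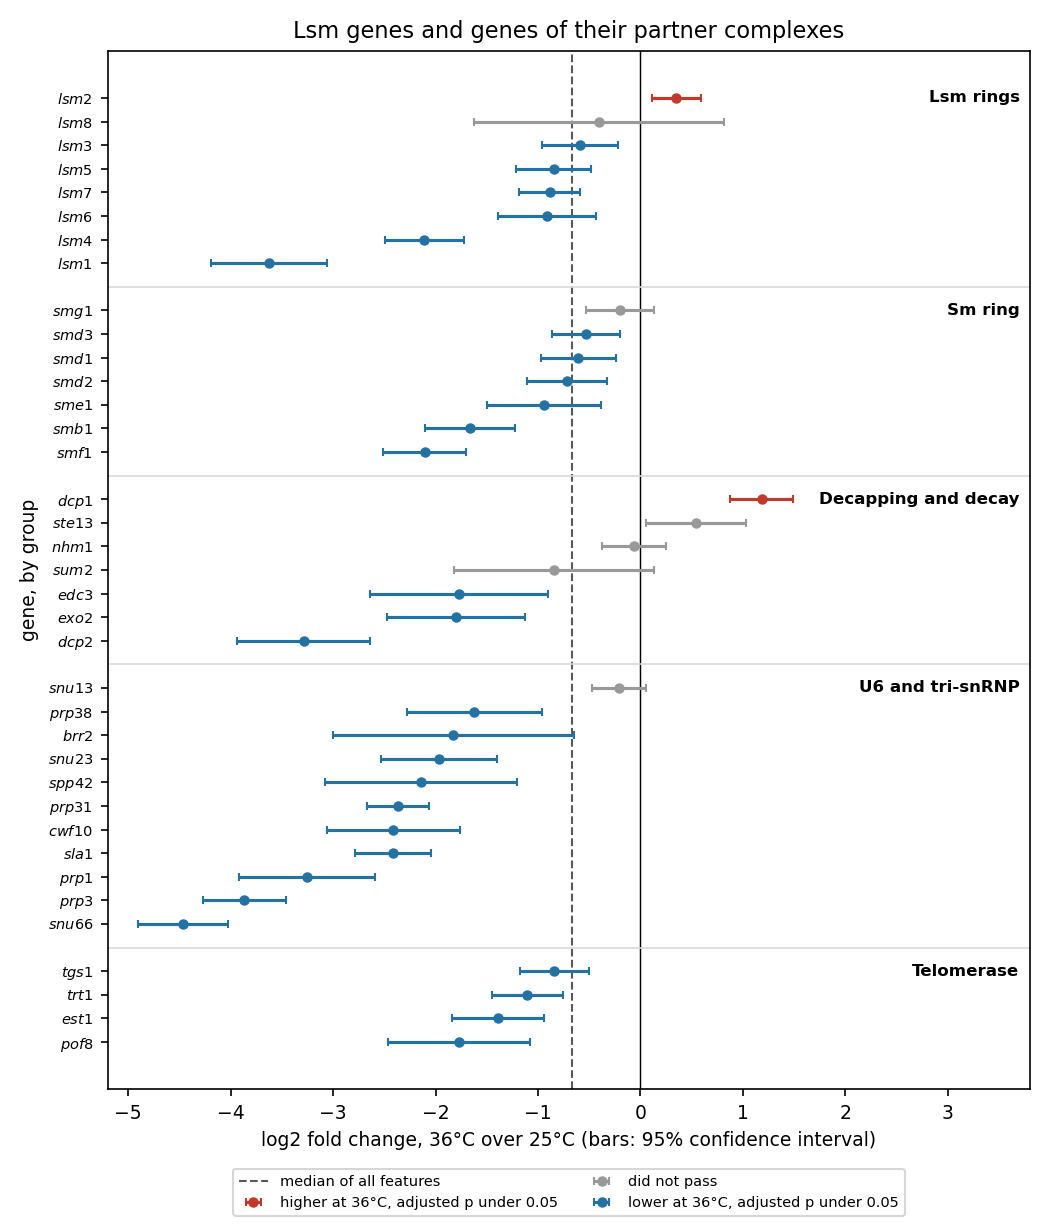
Log2 fold change (36°C over 25°C) with 95% confidence interval of the 8 Lsm genes and of the measured genes of 4 partner groups, coloured by the call at an adjusted p under 0.05 from limma. Of the genes shown, *lsm2* and *dcp1* are called higher, and *snu66* and *prp3* lie farthest below the median of all features (dashed).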

How the data were processed

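The authors deposited signal intensities from GCOS v1.4, made with default settings and global scaling. Neither labels nor methods give the scaling target. These intensities are on a linear scale, with 1 value per probe set and array and no detection calls. Of 10928 probe sets, 2917 named 1 *S. pombe* gene and 20 several genes in the platform annotation, and 5177 were unnamed. Gene symbols were updated through RefSeq gene IDs of assembly ASM294v3. Log2 signals of probe sets of 1 gene were averaged. Values of 0 (4) were set to the lowest value above 0 (0.1). The 36°C and 25°C arrays were set against each other by a two-sided test in limma 3.58.1 (lmFit, eBayes, without a block, under R 4.3.3) over 2919 features. Python 3.11.15 and pandas 2.3.3 served for tables, and figures were drawn with matplotlib 3.10.9.

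Named genes are the 8 Lsm genes, the closest feature to each, and, of each partner list, the most changed called genes and those that touch the rings. Others, and the adjacent genes, were picked after their values were seen. The members and lists were chosen with earlier results of these data known. After the mean of each temperature was removed, same-numbered arrays correlated over 2862 features above background on all arrays. Pearson's r was 0.54, 0.45 and 0.43 for replicates 1, 2 and 3. However, the 25°C array of replicate 2 was closer to the 36°C array of replicate 3 (r 0.48). The replicate numbers were taken to pair the arrays only in the replicate block and in changes given by replicate number. The main test used no pairing. The labels do not say that replicates are separate cultures, so p-values measure the spread between these samples. The number of arrays limits the precision.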

Additional observations from a re-analysis of the deposited data

How the results depend on the processing

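The 6 lower calls among the Lsm genes became 2 with array medians set equal (centring) and 3 after quantile normalization. They remained 6 in number with the replicate block, with scaling to the hybridization controls, with 32 added before log2, without dim features, with unnamed probe sets added and with eBayes trend and robust. With 1 array left out they numbered 5 to 7, and higher calls 0 to 1. The replicate block changed no call of an Lsm gene (adjusted p = 1.2e-04 for *lsm1* and 0.019 for *lsm2* from limma). For the within-array difference of *lsm8* minus *lsm1*, it left the change at 3.22, with an exact p = 0.25 over sign changes of the 3 pairs, the smallest they allow. The direction turned for *lsm3* after centring (0.18), and for *lsm8* after centring (0.36), after quantile normalization (0.091) and without replicate 2 at 25°C (0.0046). Without replicate 1 at 25°C, *lsm8* was lower (-0.98, adjusted p = 0.013 from limma). The cause of these differences was not tested. Leaving out both arrays of replicate 1, and quantile normalization for the within-array difference (2.73), were chosen after seeing the data. The low signal of *lsm8*, 40.7 to 159.1 against a background of 14.0 to 21.3, limits what can be said of it.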
